A study of Gallus gallus with 9 samples.

Results

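This account covers the LIN28 paralogues and the genes that make, move and clear microRNA precursors in primordial germ cells (PGCs) of the chicken, the founder cells of its germline. The symbols of 10 genes were sought by name in the symbol column of the authors' 2 deposited result tables, and 7 of the 10 were found there: LIN28A, LIN28B, DROSHA, XPO5, DICER1, DIS3L2 and PARN. All 7 passed the filter on low counts, among 15475 genes tested of 24356 listed. DGCR8, AGO2 and TARBP2 are not analysed here. Polyadenylated RNA was counted per gene in 9 libraries of PGCs: 3 labelled Lin28A knockout, 3 labelled Lin28B knockout and 3 labelled WT with a control vector. The labels give neither the way the genes were disrupted, nor the age or sex of the cells, nor the origin of the 3 libraries of a group. If these are not separate cultures, the p-values cover technical spread alone. The knockout names below stand for the labels.

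LIN28 proteins bind the precursor of let-7, a microRNA family that favours differentiation, and keep it from maturing. In the general pathway, a long primary transcript is cut in the nucleus by DROSHA, the hairpin is carried to the cytoplasm by exportin 5 (XPO5), and DICER1 cuts it to the short duplex that Argonaute proteins use to silence mRNAs. In mammalian cells, LIN28A brings terminal uridylyltransferases to the let-7 precursor, and the U-tailed precursor is degraded by the exonuclease DIS3L2. PARN is a deadenylase that trims the tails of RNAs, small noncoding RNAs among them.

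Libraries held 27689466 to 32226005 counts, and the lowest count of any of the 7 genes in any library was 515 (LIN28A in LIN28A knockout replicate 3), which carries a counting error of 4.41%. That error was small beside the spread of LIN28A in that group, where the SD was 67.9% of the mean. LIN28B varied less there, as its SD in LIN28A knockout was 4.73% of its mean, on 1337, 1370 and 1103 counts. The 4.41% is the error of the LIN28A count and not of these. Levels are given as CPM, the count of a gene scaled to the size of its library after TMM normalisation. Replicate 3 stood apart in every group: over the 10029 genes averaging a log2 CPM of 3 or more, replicates 1 and 2 differed by a root mean square of 0.135 (log2) in LIN28A knockout, 0.154 in LIN28B knockout and 0.139 in control, while replicate 3 differed from replicate 1 by 0.702, 0.388 and 0.353 in the same groups. All 13 germ cell markers with a symbol were detected, with summed levels of 4257 to 4663 CPM in LIN28A knockout, 4901 to 5220 CPM in LIN28B knockout and 4980 to 5183 CPM in control. DDX4 and DAZL define germ cells. DDX4 ran from 516 to 814 CPM in LIN28A knockout, 614 to 820.03 CPM in LIN28B knockout and 595 to 636 CPM in control. DAZL ran from 1341 to 1505 CPM, from 1546 to 1791 CPM and from 1804 to 2102 CPM in the same order. The germ cell markers did not share a direction in LIN28A knockout. DAZL, SOX3 and CXCR4 lay below control in every library, CXCR4 at 13.6, 14.7 and 9.16 CPM against 40.0, 40.5 and 24.3 CPM. PRDM14 lay above control, at 162, 151 and 161 CPM against 116, 118 and 119 CPM. The remaining germ cell markers overlapped control. The 14 fibroblast markers summed to 1632, 1591 and 542 CPM in LIN28A knockout, 557, 504 and 1051 CPM in LIN28B knockout and 644, 632 and 1036 CPM in control replicates 1, 2 and 3. The collagen gene COL1A1 among them had 589.6, 516 and 73.2 CPM in LIN28A knockout, 89.7, 95.2 and 54.1 CPM in LIN28B knockout and 109, 102 and 49.5 CPM in control. COL1A2 had 533, 551 and 37.5 CPM in LIN28A knockout. It had 205, 158 and 720 CPM in LIN28B knockout and 221, 210 and 695 CPM in control. COL3A1 had 230, 237 and 337 CPM, 153, 139 and 199 CPM, and 203, 215 and 199 CPM in the same order. COL5A1 had 137, 133 and 56.4 CPM, 21.1, 23.7 and 19.3 CPM, and 25.7, 24.7 and 30.0 CPM in that order. COL6A1 had 57.6, 66.3 and 13.6 CPM, 5.74, 5.69 and 4.58 CPM, and 8.94, 9.08 and 8.39 CPM. Each of these collagen genes stood above the same-numbered control in LIN28A knockout replicates 1 and 2, but they did not share a pattern in replicate 3. LUM, DCN, PDGFRA, TWIST1, POSTN and FAP had at most 6.62 CPM in any library. PDGFRB ran from 12.6 to 24.7 CPM, THY1 from 5.23 to 31.1 CPM and ACTA2 from 0.448 to 23.6 CPM over the 9 libraries. Leukocyte markers summed to 20.9 to 28.2 CPM in LIN28A knockout, 15.0 to 16.6 CPM in LIN28B knockout and 15.1 to 19.3 CPM in control. Among them LCP1 had 11.6, 14.5 and 20.2 CPM in LIN28A knockout against 9.41, 8.01 and 8.77 CPM in control. PTPRC went the other way, with 3.85, 2.71 and 2.89 CPM against 4.64, 3.65 and 3.51 CPM. CD3E and CD74 held no single direction, and CSF1R had at most 0.487 CPM in any library. Endothelial markers summed to 6.34 to 29.3 CPM in LIN28A knockout, 36.3 to 43.3 CPM in LIN28B knockout and 17.0 to 33.6 CPM in control. PECAM1 made up most of each endothelial sum. It had 27.3, 28.0 and 4.58 CPM in LIN28A knockout and 30.0, 38.7 and 32.9 CPM in LIN28B knockout. In control PECAM1 had 28.5, 26.1 and 15.0 CPM. The 2 erythroid markers with a symbol stayed under 1 CPM in sum. The part of these marker levels in the results that follow was not tested.

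LIN28A, the paralogue known from pluripotent stem cells, is the gene named as disrupted in the LIN28A knockout. As the way of disruption is not given, its RNA level cannot check that label. LIN28A (ENSGALG00000036022) had 117, 109 and 17.7 CPM in LIN28A knockout, 173, 179 and 242 CPM in LIN28B knockout and 160, 144 and 244 CPM in control. Every LIN28A knockout library lay below every control library, but replicate 3 lay far below the others. As a share of the same-numbered control, LIN28A was at 72.8%, 76.2% and 7.28% there. LIN28A differed by −1.17 ± 0.53 (log2 fold change ± SE) in LIN28A knockout, with a 95% interval of −2.36 to 0.02, and was not called (edgeR adjusted p = 0.479). Control replicate 3 held the most LIN28A of the control libraries, and LIN28B knockout replicate 3 the most of its group, so replicate 3 was highest in those groups and lowest in LIN28A knockout. Without LIN28A knockout replicate 3 the log2 fold change was −0.69 ± 0.23 (edgeR adjusted p = 0.148). With replicates 1 and 2 of every group LIN28A was −0.43 ± 0.06 and passed as lower (edgeR adjusted p = 1.76e-06). That fit called 30.1% of all genes in LIN28A knockout and 31.2% in LIN28B knockout, and replicates 1 and 2 may not be separate cultures. In LIN28B knockout LIN28A differed from control by 0.12 ± 0.53 (interval −1.06 to 1.29, edgeR adjusted p = 0.958), and these groups overlapped. In bulk RNA, fewer cells that express a gene and less of its RNA per cell cannot be told apart.

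LIN28B, the paralogue best known from fetal tissues, is the gene named as disrupted in the LIN28B knockout. LIN28B (ENSGALG00000026761) had 40.3, 41.7 and 38.0 CPM in LIN28A knockout, 55.0, 59.6 and 50.3 CPM in LIN28B knockout and 52.3, 45.3 and 61.9 CPM in control. LIN28B knockout libraries lay within the range of control, while all LIN28A knockout libraries lay below both. The log2 fold change of LIN28B in LIN28B knockout was 0.05 ± 0.14 (interval −0.26 to 0.35, edgeR adjusted p = 0.929). A transcript can persist when its reading frame is broken, so these counts do not show whether the protein was lost. In LIN28A knockout LIN28B was lower by −0.41 ± 0.14 on the log2 scale (interval −0.72 to −0.10), with an unadjusted p of 0.0138 that did not pass over all genes (edgeR adjusted p = 0.327). By replicate number, LIN28B in LIN28A knockout was at 77.1%, 92.1% and 61.4% of the same-numbered control. The interval of this difference lay below 0, as it did for no other of the 7 genes in either knockout against control.

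The ratio of LIN28A to LIN28B counts was used to compare libraries with no effect of library size. Neither gene was scaled to its length, so the ratio does not rank the levels of the paralogues. The ratio was 2.90, 2.62 and 0.467 in LIN28A knockout, 3.14, 3.00 and 4.81 in LIN28B knockout and 3.07, 3.17 and 3.94 in control. LIN28A knockout replicate 3 was the 1 library with more LIN28B than LIN28A counts, and the remaining LIN28A knockout libraries lay just under the lowest control. On the log2 scale the mean ratio was 0.61 ± 1.48 in LIN28A knockout and 1.75 ± 0.20 in control (SD, n = 3 each), a difference of −1.14 (exact two-sided permutation test of unpaired libraries, p = 0.1, the smallest that 3 against 3 can give). Taken as same-numbered pairs, the exact two-sided sign-flip permutation gave p = 0.25, the smallest that 3 pairs can give, so neither test could reach 0.05. Without LIN28A knockout replicate 3 the difference was −0.29. In LIN28B knockout the mean log2 ratio was 1.83 ± 0.37 against 1.75 ± 0.20 in control (SD, n = 3 each), a difference of 0.08 (exact two-sided permutation test, p = 0.9, and p = 0.75 by sign flips of the pairs). Against the control of the same number, the log2 ratio differed by −0.08, −0.27 and −3.07 in LIN28A knockout and by 0.03, −0.08 and 0.29 in LIN28B knockout. In LIN28A knockout replicates 1 and 2, where the 2 paralogues both stood lower than in the same-numbered control, the balance of the paralogues moved little.

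**Figure D1:**
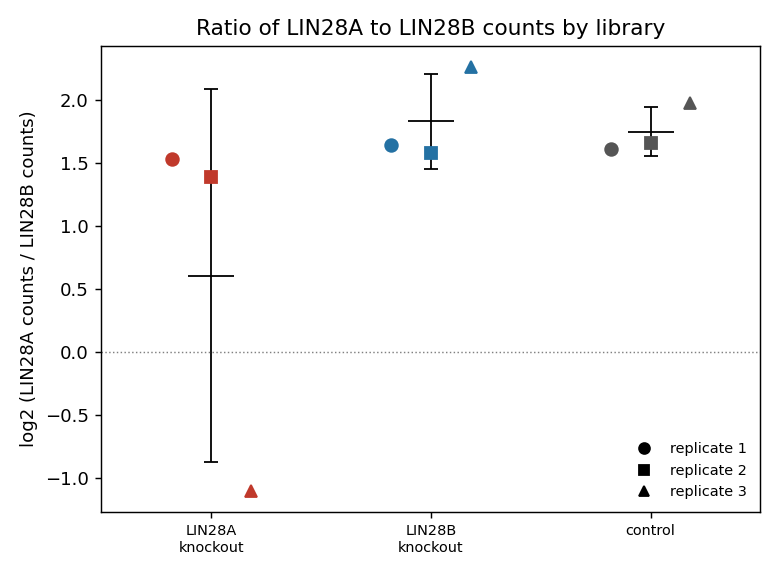
Log2 ratio of LIN28A to LIN28B counts (y axis) in each library of LIN28A knockout, LIN28B knockout and control; the symbol shape gives the replicate number, and the line and bar give the mean and SD of 3 libraries. LIN28A knockout replicate 3 sits at −1.10 and the other 8 libraries between 1.39 and 2.26.

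DROSHA (ENSGALG00000012916), the nuclease that cuts primary transcripts in the nucleus, had 72.2, 72.1 and 56.9 CPM in LIN28A knockout, 58.6, 53.9 and 74.6 CPM in LIN28B knockout and 64.3, 64.9 and 70.9 CPM in control. Both knockouts straddled control, and replicate 3 was low in LIN28A knockout and high in LIN28B knockout. The log2 fold change of DROSHA was 0.01 ± 0.15 in LIN28A knockout (interval −0.32 to 0.34, edgeR adjusted p = 0.991) and −0.10 ± 0.15 in LIN28B knockout (interval −0.43 to 0.24, edgeR adjusted p = 0.867). Over replicates 1 and 2 of every group DROSHA was 0.16 ± 0.07 in LIN28A knockout (edgeR adjusted p = 0.0870) and −0.20 ± 0.07 in LIN28B knockout (edgeR adjusted p = 0.0322).

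XPO5 (ENSGALG00000010341), the nuclear exporter of precursor hairpins, had 594, 592 and 350.2 CPM in LIN28A knockout, 599, 561 and 656 CPM in LIN28B knockout and 662, 677 and 629.8 CPM in control. LIN28A knockout lay below control in all 3 libraries, with replicate 3 the lowest of the 9, whereas LIN28B knockout overlapped control. Its log2 fold change was −0.36 ± 0.18 in LIN28A knockout (interval −0.76 to 0.04, edgeR adjusted p = 0.525) and −0.12 ± 0.18 in LIN28B knockout (interval −0.52 to 0.29, edgeR adjusted p = 0.867). Without LIN28A knockout replicate 3 the difference in LIN28A knockout was −0.15 ± 0.09 (edgeR adjusted p = 0.426). With replicates 1 and 2 of every group XPO5 passed as lower in LIN28A knockout, at −0.17 ± 0.04 (edgeR adjusted p = 0.00220), and in LIN28B knockout, at −0.21 ± 0.04 (edgeR adjusted p = 3.53e-04).

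DICER1 (ENSGALG00000010999), which cuts the hairpin to its mature length, had 71.4, 74.4 and 91.6 CPM in LIN28A knockout, 76.2, 76.4 and 128 CPM in LIN28B knockout and 82.0, 72.0 and 183 CPM in control. Replicates 1 and 2 were alike across the groups, and replicate 3 was the highest library of each group. DICER1 in replicate 3 exceeded the mean of replicates 1 and 2 by 0.33 in LIN28A knockout, 0.74 in LIN28B knockout and 1.25 in control on the log2 scale. The log2 fold change of DICER1 was −0.50 ± 0.34 in LIN28A knockout (interval −1.26 to 0.25, edgeR adjusted p = 0.646) and −0.26 ± 0.34 in LIN28B knockout (interval −1.02 to 0.49, edgeR adjusted p = 0.835). Both values moved with replicate 3. Without control replicate 3 DICER1 was at 0.04 in LIN28A knockout (edgeR adjusted p = 0.965) and 0.28 in LIN28B knockout (edgeR adjusted p = 0.941). Without the knockout's own replicate 3 it was at −0.62 in LIN28A knockout and −0.56 in LIN28B knockout. With a replicate block DICER1 was −0.39 ± 0.18 in LIN28A knockout and −0.20 ± 0.18 in LIN28B knockout (edgeR adjusted p = 0.379 and 0.658). Over replicates 1 and 2 of every group it was −0.08 ± 0.07 in LIN28A knockout and −0.02 ± 0.07 in LIN28B knockout (edgeR adjusted p = 0.433 and 0.898).

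DIS3L2 (ENSGALG00000007767), the exonuclease that degrades U-tailed precursors, had 46.1, 43.5 and 55.3 CPM in LIN28A knockout, 40.3, 44.99 and 62.0 CPM in LIN28B knockout and 60.5, 60.2 and 66.5 CPM in control. LIN28A knockout lay below control in every library, and LIN28B knockout in replicates 1 and 2. The log2 fold change of DIS3L2 was −0.37 ± 0.17 in LIN28A knockout (interval −0.75 to 0.01, edgeR adjusted p = 0.481) and −0.35 ± 0.17 in LIN28B knockout (interval −0.72 to 0.03, edgeR adjusted p = 0.595). In LIN28B knockout it was −0.22 without LIN28B knockout replicate 1 and −0.55 without LIN28B knockout replicate 3 (edgeR adjusted p = 0.983 and 0.156). Against the control of the same number DIS3L2 was at 76.2%, 72.3% and 83.2% in LIN28A knockout and at 66.6%, 74.8% and 93.2% in LIN28B knockout, the 1 gene of the 7 that was lower in all 6 such pairs. Both comparisons use the same 3 control libraries. With a replicate block in the model DIS3L2 was −0.38 ± 0.11 in LIN28A knockout (edgeR unadjusted p = 0.0120, adjusted p = 0.222). It was −0.37 ± 0.12 in LIN28B knockout in that model (edgeR unadjusted p = 0.0137, adjusted p = 0.213). With replicates 1 and 2 of every group DIS3L2 passed as lower in LIN28A knockout, at −0.43 ± 0.08 (edgeR adjusted p = 1.10e-04), and in LIN28B knockout, at −0.50 ± 0.08 (edgeR adjusted p = 1.43e-05).

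PARN (ENSGALG00000003091), the deadenylase, had 90.6, 96.9 and 103 CPM in LIN28A knockout, 75.2, 71.2 and 108 CPM in LIN28B knockout and 83.7, 83.4 and 92.4 CPM in control. The LIN28A knockout libraries were at 108%, 116% and 112% of the same-numbered control, though the groups overlapped. In LIN28B knockout replicates 1 and 2 lay below control and replicate 3 above it. The log2 fold change of PARN was 0.16 ± 0.16 in LIN28A knockout (interval −0.18 to 0.51, edgeR adjusted p = 0.754) and −0.03 ± 0.16 in LIN28B knockout (interval −0.38 to 0.32, edgeR adjusted p = 0.963). Without LIN28B knockout replicate 3 PARN in LIN28B knockout was at −0.24 ± 0.11 (edgeR adjusted p = 0.349). Over replicates 1 and 2 of every group PARN passed as lower in LIN28B knockout, at −0.19 ± 0.07 (edgeR adjusted p = 0.0254).

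**Figure D2:**
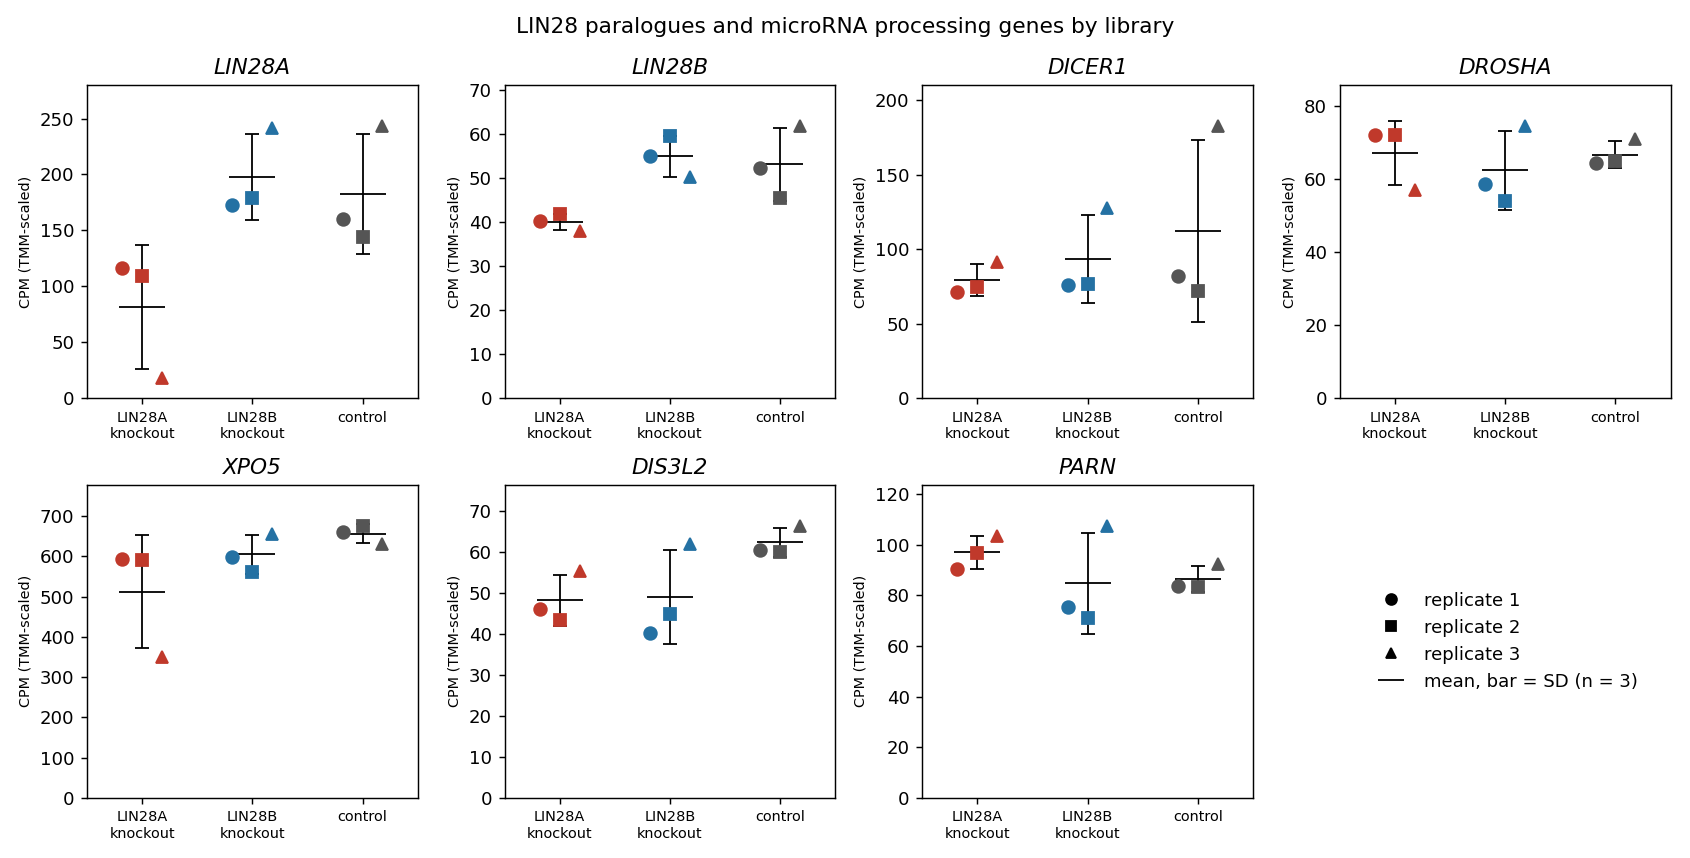
CPM after TMM scaling (y axis, from 0) of the 7 genes in each library of LIN28A knockout, LIN28B knockout and control; shapes give the replicate number, lines and bars the mean and SD of 3 libraries. On the log2 scale LIN28A in LIN28A knockout replicate 3 (17.7 CPM) and DICER1 in control replicate 3 (183 CPM) stand farthest from their groups. In CPM, XPO5 in LIN28A knockout replicate 3 (350.2 CPM) does.

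In LIN28A knockout against control, 0 of the 7 genes passed over all genes, where edgeR called 0.00646% of the genes tested. At an unadjusted p under 0.05 LIN28B alone was lower, 1 of 7, against 10.6% of all genes. With the replicate block LIN28B and DIS3L2 were under 0.05, 2 of 7, against 14.5% of all genes. CPM ranges of the groups did not overlap for 4 of the 7, all lower in LIN28A knockout (LIN28A, LIN28B, XPO5 and DIS3L2). Among all genes 18% did not overlap in either direction and 9.78% did so as lower. The median log2 fold change of the 7 was −0.37, against 0.02 over all genes tested. DESeq2 called 0 of the 7, with 2.46% of all genes called, and the authors' deposited table has 0 of the 7 under an adjusted p of 0.05, with 1.91% of its genes. In the authors' deposited table DIS3L2 and LIN28B have the smallest p-values of the 7, with log2 fold changes of −0.36 and −0.40 and adjusted p-values of 0.290 and 0.291.

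In LIN28B knockout against control edgeR again called 0 of the 7, with 0.0129% of all genes called. At an unadjusted p under 0.05 the count was 0 of 7, against 8.87% of all genes. With the replicate block it was 1 of 7 (DIS3L2), against 15% of all genes. CPM ranges overlapped for all 7, while they did not for 22.9% of all genes. The median log2 fold change of the 7 was −0.10, against −0.00 over all genes tested. DESeq2 called 0 of the 7 with 1.13% of all genes called, and the authors' deposited table has 0 of the 7, with 4.6% of its genes under an adjusted p of 0.05. DIS3L2 has the smallest p of the 7 there, with −0.35 as its log2 fold change and an adjusted p of 0.306.

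**Figure D3:**
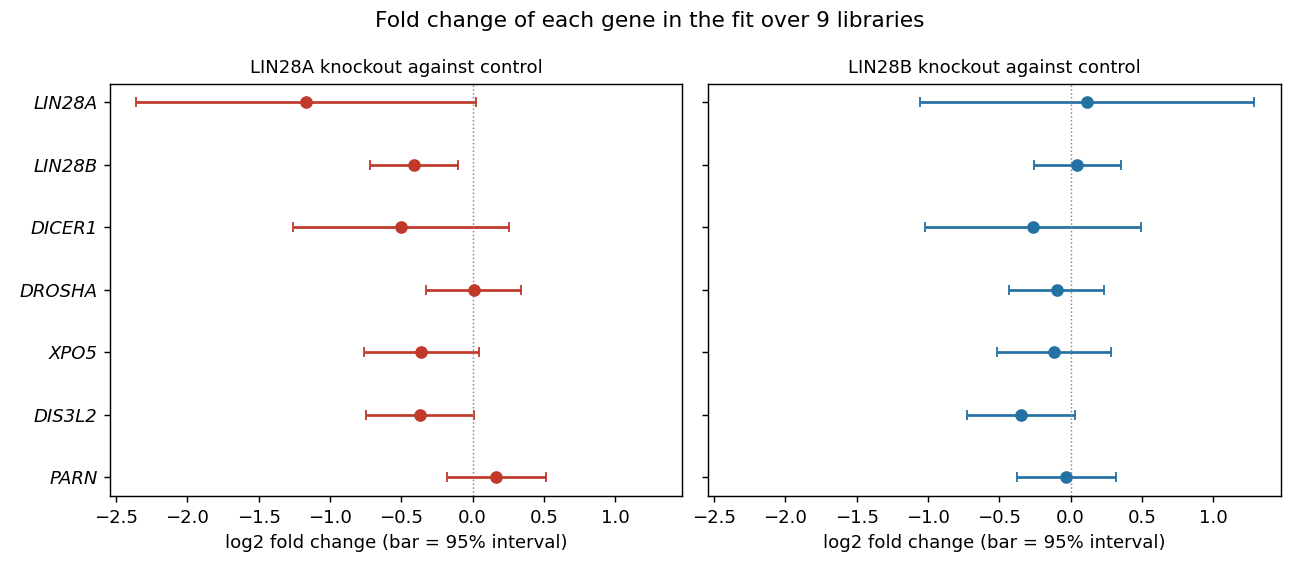
Log2 fold change (x axis) of the 7 genes in LIN28A knockout and in LIN28B knockout against control, from the fit over 9 libraries without a replicate block. Bars are 95% intervals. The interval of LIN28B in LIN28A knockout (−0.72 to −0.10) is the 1 that leaves out 0, and those of LIN28A and DICER1 are the widest.

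LIN28A knockout set against LIN28B knockout tested the difference between the knockouts itself. LIN28A stood lower in LIN28A knockout, by −1.28 ± 0.53 on the log2 scale (interval −2.48 to −0.09, edgeR adjusted p = 0.253), and LIN28B by −0.46 ± 0.14 (interval −0.76 to −0.15, edgeR adjusted p = 0.147). Without LIN28A knockout replicate 3 the LIN28A difference was −0.81 (edgeR adjusted p = 0.0964). Neither passed over all genes, where edgeR called 0 of the 7 and 0.517% of all genes. Both had an unadjusted p under 0.05 (0.0378 and 0.00759), 2 of 7 against 18% of all genes. The same 2 genes were the ones whose CPM ranges did not overlap, against 24.3% of all genes. DESeq2 called LIN28B (adjusted p = 0.0456) and no other of the 7, with 6.71% of all genes called. DIS3L2 differed between the knockouts by −0.02 ± 0.17 (interval −0.40 to 0.36), XPO5 by −0.24 ± 0.18 (interval −0.64 to 0.16) and DICER1 by −0.24 ± 0.34 (interval −0.996 to 0.516). DROSHA differed by 0.10 ± 0.15 (interval −0.23 to 0.44) and PARN by 0.20 ± 0.16 (interval −0.15 to 0.54).

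Calls for these genes depended on replicate 3. With replicates 1 and 2 of every group, 4 of the 7 passed in LIN28A knockout (LIN28A, LIN28B, XPO5 and DIS3L2, all lower). LIN28B was then at −0.25 ± 0.08 (edgeR adjusted p = 0.0216). In LIN28B knockout 6 of the 7 passed: XPO5, DIS3L2, DROSHA and PARN as lower, LIN28A (0.21 ± 0.06, edgeR adjusted p = 0.00635) and LIN28B (0.23 ± 0.08, edgeR adjusted p = 0.0330) as higher. These counts stand beside 30.1% and 31.2% of all genes called in the same fits, and beside 39.5% in LIN28A knockout against LIN28B knockout, where 4 of the 7 passed. Replicates 1 and 2 of a group may not be separate cultures, in which case these p-values are too small. In replicate 3 alone, relative to its control, the log2 differences in LIN28A knockout were −3.78 for LIN28A, −0.70 for LIN28B, −0.997 for DICER1, −0.85 for XPO5, −0.32 for DROSHA, −0.27 for DIS3L2 and 0.16 for PARN. In LIN28B knockout replicate 3 they ran from −0.52 for DICER1 to 0.22 for PARN.

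**Figure D4:**
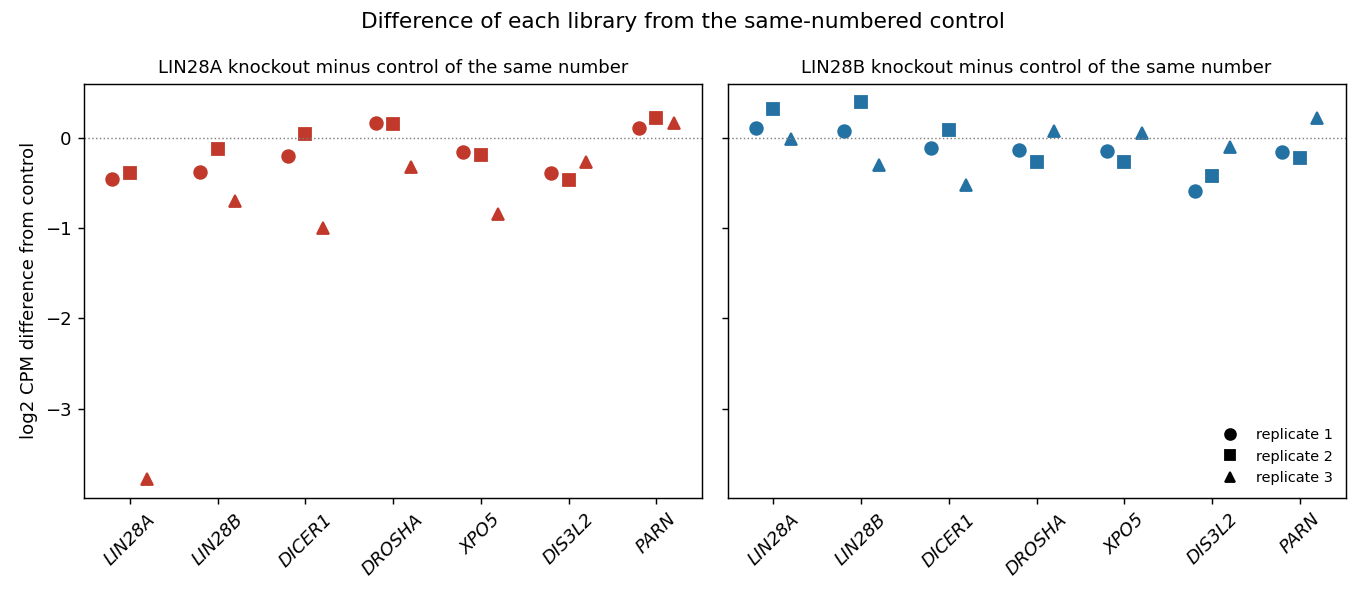
Log2 CPM difference (y axis) of each knockout library from the control library of the same replicate number for the 7 genes; shapes give the replicate number. DIS3L2 is below 0 in all 6 knockout libraries, and LIN28A in LIN28A knockout replicate 3 (−3.78) is the largest difference.

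The genes also differed in how much they varied within groups. The within-group SD of log2 CPM, pooled over the 3 groups, was 0.93 for LIN28A, larger than in 99.1% of the same 10029 genes. DICER1 came next at 0.50, larger than in 93.1%, and XPO5 stood at 0.26. DIS3L2, PARN and DROSHA stood at 0.22, 0.20 and 0.19, close to the median of 0.21 over those genes. LIN28B was the steadiest at 0.15. The groups did not share the spread of LIN28A alike. Its replicate 3 differed from the mean of replicates 1 and 2 by −2.67 in LIN28A knockout on the log2 scale. In LIN28B knockout and control that difference was 0.46 and 0.68. The level order of the groups was LIN28B knockout, control, LIN28A knockout for both paralogues, with overlap between the first pair and none below them. The order was control, LIN28B knockout, LIN28A knockout for XPO5, DICER1 and DIS3L2, and LIN28A knockout, control, LIN28B knockout for DROSHA and PARN, with each neighbouring pair overlapping.

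Genes whose pattern over the 9 libraries was nearest to that of each paralogue were sought among 9092 other genes that have a symbol and average a log2 CPM of 3 or more, by the root mean square difference of log2 CPM after centring each gene. For LIN28A these were NKAIN1 (difference 0.174), the forkhead transcription factor FOXD3 (0.264) and the synaptic adhesion gene NLGN3 (0.288), against a root mean square of 1.08 of LIN28A about its own mean. NKAIN1 had 47.7, 46.2 and 8.89 CPM in LIN28A knockout, 80.1, 78.1 and 144 CPM in LIN28B knockout and 75.9, 71.6 and 95.3 CPM in control. The search itself favours genes that are low in LIN28A knockout replicate 3. FOXD3 had 17.4, 15.7 and 1.69 CPM in LIN28A knockout, 22.2, 19.1 and 35.1 CPM in LIN28B knockout and 16.2, 13.9 and 36.3 CPM in control. For LIN28B the nearest were TTL, the tubulin tyrosine ligase (0.0626), RIC8A, a chaperone of G protein alpha subunits (0.0743), and TCF7L2, a transcription factor of WNT signalling (0.0788), against 0.238 of LIN28B about its mean. TTL had 123, 122 and 106 CPM in LIN28A knockout, 168, 170 and 158 CPM in LIN28B knockout and 145, 139 and 187 CPM in control. Members of each set share libraries and were picked for likeness, so no test was made.

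Of 74 further genes of the microRNA pathway listed by name, 62 had a symbol in the deposited tables and all 62 were tested. They fall into nuclear processing (12 genes), export and loading (11), the silencing complex (22) and tailing and decay (17). In LIN28A knockout edgeR called 0 of the 62. Unadjusted p-values under 0.05 were found for 3 higher and 8 lower genes, 17.7% of the list against 10.6% of all genes, and DESeq2 called 1 (CNOT8, adjusted p = 0.0454). The median log2 fold change was −0.20 for nuclear processing, with 11 of 12 genes below control, and −0.24 for export and loading, with 8 of 11 below. It was 0.00 for the silencing complex, with 11 of 22 below, and −0.01 for tailing and decay, with 9 of 17 below. Over all genes the median was 0.02, and 47.3% were below control. In nuclear processing, NCBP1, DDX17 and QKI stood above the same-numbered control in LIN28A knockout replicates 1 and 2 and below it in replicate 3. The remaining genes of that part were below it in every pair, some mainly in replicate 3. SRSF3 had 280, 274 and 158 CPM in LIN28A knockout against 289, 280 and 339 CPM in control. How far the medians rest on LIN28A knockout replicate 3 was not tested. In LIN28B knockout the medians were −0.06 for nuclear processing, with 7 of 12 genes below control, −0.04 for export and loading, with 7 of 11 below, 0.05 for the silencing complex, with 9 of 22 below, and −0.00 for tailing and decay, with 10 of 17 below. Over all genes 50.2% were below control there. The difference between the knockouts was not tested for these lists. In LIN28B knockout edgeR called 0 of the 62 as well, with unadjusted p-values under 0.05 for 3 higher genes and 1 lower, 6.45% of the list against 8.87% of all genes. DESeq2 called 1, MOV10. Between the knockouts edgeR called 0 of the 62, with 4 higher and 9 lower genes at unadjusted p-values under 0.05, 21% of the list against 18% of all genes. There DESeq2 called TRIM71, lower in LIN28A knockout (adjusted p = 0.00822), and DCP1A, a gene of mRNA decapping, higher (adjusted p = 3.30e-04). Both were picked out here after their values were seen, and their edgeR adjusted p-values were 0.109 and 0.0707. DCP1A had 32.6, 32.4 and 75.7 CPM in LIN28A knockout. It had 13.5, 13.4 and 19.0 CPM in LIN28B knockout and 23.1, 19.5 and 31.3 CPM in control.

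Genes named in LIN28A knockout were those with the smallest unadjusted p of each part. HNRNPA1, an RNA-binding protein that helps the processing of some primary microRNAs, had 617, 551 and 358 CPM in LIN28A knockout against 687, 696 and 689 CPM in control, at −0.44 ± 0.17 on the log2 scale (edgeR adjusted p = 0.388). RAN, the small GTPase that powers exportins, had 571, 596 and 404 CPM against 692, 728 and 723 CPM in control, at −0.45 ± 0.15 (edgeR adjusted p = 0.321). In both genes all LIN28A knockout libraries lay below control and replicate 3 was the lowest. Without that library HNRNPA1 was at −0.24 and RAN at −0.29. TRIM71, an RNA-binding ubiquitin ligase and a known let-7 target, had 147, 148 and 67.8 CPM in LIN28A knockout, 259, 226 and 349 CPM in LIN28B knockout and 191, 188 and 314 CPM in control. Its log2 fold change in LIN28A knockout was −0.93 ± 0.31 (edgeR adjusted p = 0.330), and −0.36 with replicates 1 and 2 of every group, where it passed as lower (edgeR adjusted p = 1.31e-05). That fit called 30.1% of all genes, and its p-values are too small if replicates 1 and 2 are not separate cultures. CNOT8, a deadenylase of the CCR4-NOT complex, had 90.0, 94.4 and 94.6 CPM against 109, 115 and 124 CPM in control, at −0.32 ± 0.09 (edgeR adjusted p = 0.278). HSP90AA1 and PAPD7 differed by −0.26 ± 0.09 and −0.27 ± 0.12 (edgeR adjusted p = 0.356 and 0.439).

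In LIN28B knockout, MOV10, an RNA helicase found with Argonaute, had 2.73, 3.87 and 2.54 CPM against 1.06, 1.29 and 0.522 CPM in control, at 1.66 ± 0.44 (edgeR adjusted p = 0.410; DESeq2 adjusted p = 0.0346). In LIN28A knockout MOV10 had 3.37, 2.56 and 1.55 CPM, at 1.37 ± 0.43 over the same control libraries (edgeR adjusted p = 0.307). These levels rest on 14 to 112 counts per library. CNOT1, the scaffold of the CCR4-NOT complex, had 813, 831 and 682 CPM in LIN28B knockout against 650, 659 and 580 CPM in control, at 0.30 ± 0.11 (edgeR adjusted p = 0.502). XPO1, an exporter of proteins and some RNAs, had 321, 305 and 584 CPM in LIN28B knockout against 466, 462 and 665 CPM in control, at −0.40 ± 0.26 (edgeR adjusted p = 0.679). XPO1 was lower than the same-numbered control in every pair, and replicate 3 was the highest of both groups. Leaving out each library in turn moved it between −0.76 (without LIN28B knockout replicate 3) and −0.20 (without control replicate 3). PAPD4 and ZC3H12A differed by 0.26 ± 0.12 and 0.43 ± 0.21, and HNRNPA1 and AGO4 by −0.22 ± 0.17 and −0.19 ± 0.14 (edgeR adjusted p from 0.560 to 0.726 for these 4). The uridylyltransferases ZCCHC11 and ZCCHC6, also called TUT4 and TUT7, were singled out after their values were seen, for their place beside LIN28 and DIS3L2. ZCCHC11 had 83.6, 88.6 and 65.0 CPM in LIN28A knockout, 89.4, 83.1 and 87.6 CPM in LIN28B knockout and 85.8, 84.1 and 95.8 CPM in control, with log2 fold changes of −0.16 ± 0.13 and −0.03 ± 0.13 for the knockouts in that order (edgeR adjusted p = 0.701 and 0.954). ZCCHC6 differed by 0.15 ± 0.22 in LIN28A knockout and by −0.00 ± 0.22 in LIN28B knockout (edgeR adjusted p = 0.867 and 0.996).

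**Figure D5:**
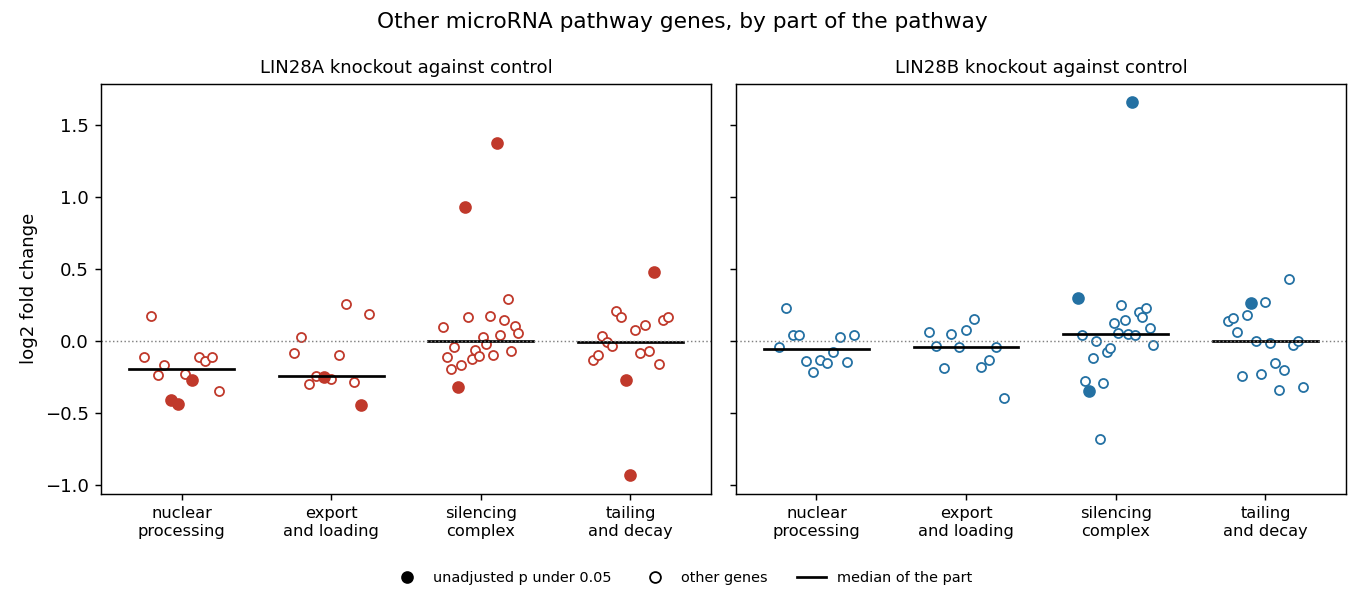
Log2 fold change (y axis) of 62 further microRNA pathway genes in LIN28A knockout and LIN28B knockout against control, by part of the pathway; filled points have an unadjusted p under 0.05, and lines are medians. The medians of nuclear processing (−0.20) and of export and loading (−0.24) lie below 0 in LIN28A knockout, and MOV10 is the highest point in both panels. How far these medians rest on LIN28A knockout replicate 3 was not tested.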

How the data were processed

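Counts of reads per Ensembl gene were deposited by the authors as whole numbers, in a table for each library. The submitters' processing notes name HISAT2 (2.1.0), featureCounts (2.0.3), DESeq2 (1.36.0), edgeR (3.38.4) and the builds GRCg6a and galGal6, without their roles. Neither the annotation nor strand use in counting was given in the sources used here, and overlapping genes may share reads. Log2 fold changes, p-values and adjusted p-values in the 2 deposited result tables come from the authors, per the file headers, while the mean signal and the Wald score deposited there were not used.

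The test was edgeR's quasi-likelihood test (edgeR 4.0.16, R 4.3.3) after TMM scaling and filterByExpr with default settings. One model of group held all 9 libraries, and p-values were adjusted by Benjamini-Hochberg over 15475 genes, with a threshold of 0.05. The common biological coefficient of variation was 0.265, and intervals are 95% intervals of that model. Log2 CPM and the log2 ratio used a prior count of 0.5. Alternatives were DESeq2 (1.42.0), its size factors, other filters and priors, the 2 groups alone, a replicate block, and libraries left out. The genes, lists and tests were chosen with earlier results of these data known. All 7 genes are named, and of the other pathway genes the pair with the smallest p in each part, except 1 gene that is not reported here.

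What the replicate numbers mean is not stated. Over 10029 genes, same-numbered libraries deviated from their group means with correlations of 0.392, 0.238 and 0.373 (LIN28A knockout and control) and 0.388, 0.438 and 0.558 (LIN28B knockout and control). All exceed 0.1, so the numbers were taken to pair these groups. The check cannot separate replicates 1 and 2. Knockout 1 with control 2, and 2 with 1, gave 0.300 and 0.319 for LIN28A knockout and 0.415 and 0.432 for LIN28B knockout. Intervals and p-values of the main fit do not use this pairing. Only the replicate block, the sign flips and the same-numbered comparisons do. For LIN28A knockout and LIN28B knockout the values were 0.117, 0.0649 and 0.104, and no pairing was taken. The block model holds all 9 libraries, so its results between the knockouts use the replicate number all the same. Replicates 1 and 2 of a group differed beyond counting noise (chi-square per degree of freedom 4.88 to 6.11), and none was merged.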

Additional observations from a re-analysis of the deposited data

How the results depend on the processing

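Of the 7 genes in the 3 comparisons, scaling by DESeq2 size factors, either other filter, the fit on 2 groups and the replicate block changed no call. DESeq2 called 1 in LIN28A knockout against LIN28B knockout. Replicates 1 and 2 of every group gave 4, 6 and 4 called in LIN28A knockout, in LIN28B knockout and between the knockouts, with LIN28A at −0.43 in LIN28A knockout and LIN28B at 0.23 in LIN28B knockout. There XPO5 and DIS3L2 between the knockouts turned to 0.0334 and 0.0736, and the log2 ratio in LIN28B knockout to −0.0226; the cause was not tested.

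Counts over all genes moved far more. In LIN28A knockout edgeR called 1, against 381 by DESeq2, 5 with no filter, 0 on the 2 groups, 13 with the replicate block and 4724 with replicates 1 and 2; without LIN28A knockout replicate 3 it was 453 and without control 1, 2 or 3, LIN28A knockout 1 or 2 or LIN28B knockout 2 it was 0. In LIN28B knockout edgeR called 2, against 158, 1 on the 2 groups, 24 with the block and 4898 with replicates 1 and 2; it was 166 without LIN28A knockout replicate 3, 21 without LIN28B knockout replicate 3, 1 without LIN28A knockout replicate 2 and 0 without control 1, 2 or 3, LIN28A knockout 1 or LIN28B knockout 1 or 2. Between the knockouts it called 80, against 1018, 136 with no filter, 9 on the 2 groups, 890 with the block and 6196; leaving out a library gave 0 (LIN28B knockout replicate 1 or 2) to 474 (LIN28A knockout replicate 3).

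Of the 62 other pathway genes, DESeq2 called 1, 1 and 2 in LIN28A knockout, in LIN28B knockout and between the knockouts, beside 2.46%, 1.13% and 6.71% of all genes. Replicates 1 and 2 gave 29, 31 and 34 of the 62 genes. These are larger shares than the 30.1%, 31.2% and 39.5% of all genes called in the same fits. The list was not matched to all genes in expression level, so the shares are not like for like. No test of the list was made. Between the knockouts no filter gave 1 and the block 3. Leaving out a library gave 0 to 1, the 1 being without LIN28A knockout replicate 3.

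Leaving out each library in turn gave no call among the 7 but turned the direction of several values. LIN28B in LIN28B knockout ran from −0.0544 (without control replicate 2) to 0.17, and LIN28A there from −0.0550 to 0.38. DROSHA in LIN28A knockout ran from −0.0481 to 0.11 and DICER1 from −0.74 to 0.0388. In LIN28B knockout DICER1 ran from −0.56 to 0.28 and PARN from −0.24 to 0.0802. Between the knockouts DIS3L2 ran from −0.15 to 0.18 and DICER1 from −0.37 to 0.0535. LIN28A in LIN28A knockout ran from −1.52 to −0.69, and DIS3L2 in LIN28B knockout from −0.55 to −0.22. The log2 ratio ran from −1.61 to −0.29 in LIN28A knockout and from −0.13 to 0.20 in LIN28B knockout.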

Other observations

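The deposited tables also list 3 genes of let-7 microRNAs, picked after their values were seen. Reads on them in polyadenylated RNA may come from primary transcripts or from overlapping genes, and which of these was not tested. The mature microRNA was not measured. MIRLET7D had 162, 142 and 9 counts in LIN28A knockout, 151, 194 and 151 in LIN28B knockout and 148, 169 and 80 in control. Its log2 fold change was −0.45 ± 0.69 in LIN28A knockout and 0.37 ± 0.68 in LIN28B knockout (edgeR adjusted p = 0.866 and 0.888). MIRLET7F1 had 16, 9 and 4 counts in LIN28A knockout, 46, 30 and 32 in LIN28B knockout and 27, 27 and 17 in control. The LIN28A knockout libraries lay below control and the LIN28B knockout libraries above it, with log2 fold changes of −1.37 ± 0.52 and 0.63 ± 0.49 (edgeR adjusted p = 0.386 and 0.728), and in LIN28A knockout against LIN28B knockout the 95% interval was −3.16 to −0.84 (edgeR adjusted p = 0.108, DESeq2 adjusted p = 0.0119). MIRLET7B had at most 12 counts in a library and was not tested.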
